A study of Mus musculus with 59 samples.

Results

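The comparison set 8 Brca1-deficient against 9 Brca1-wild type mouse serous epithelial ovarian cancers (SEOC) that had been transplanted only 1 or 2 times. Its 17 tumors were chosen from the 59 arrays of the series by their passage label, p1 or p2, and every such tumor of the newer set of 30 arrays was taken. Passage 1 held 4 tumors of each genotype, and passage 2 held 4 Brca1-deficient and 5 wild type tumors. The question was whether loss of Brca1 altered the transcriptome of these transplants before later passaging.

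All tumors were of strain FVB/NJ. The labels gave the Brca1-deficient tumors the alleles B1 D/D and cp D/D with K18 tg, and the wild type tumors the alleles K18 D/D and cp D/D. All lines were described as carrying the TgK18G_T121 transgene, a bacterial artificial chromosome with the mouse Krt18 gene that expresses T121 after Cre recombination and so disables the RB family, together with deleted p53, written cp in the labels. The transgene was thus written differently for the 2 genotypes. Primary tumors had been started by adenoviral Cre in the ovarian bursa, and fragments were grown under the bursa of syngeneic, immunocompetent females, so that each array measured tumor cells together with host stroma that keeps intact Brca1. Recombination by Cre in vivo was described as incomplete, and the recipients were females a few weeks old. The newer arrays were described as primary cancers and transplants grown from them, and they hold 2 Brca1-deficient and 3 wild type primaries. The parent of each transplant was not named, but the 17 tumors may come from as few lines as that, and p-values that treat them as independent can then be too small.

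BRCA1 is a tumor suppressor that helps to repair DNA double strand breaks by homologous recombination, in which a sister chromatid serves as the template. Cells without it rely on error-prone end joining and gain and lose chromosome segments. Inherited BRCA1 mutation predisposes to serous ovarian and breast cancer, and the repair defect is the basis of sensitivity to platinum drugs and PARP inhibitors.

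The arrays were first compared with each other, by the standard deviation of their log2 differences over 45037 probe sets. Tumors 62803 and 61362, which carry opposite genotype labels, differed by a standard deviation of 0.08. Only 12 probe sets differed between them by over 0.5, with 0.86 the largest difference, whereas any other pair of early arrays was at least 0.26 apart. Both resembled the wild type tumors 56234, at 0.28, and 56230, at 0.30, and the nearest other Brca1-deficient array to 61362 lay at 0.50. Whether 1 label is wrong or the same RNA was on both arrays cannot be told apart from these values, and in either case the groups would not hold 8 and 9 separate tumors of their genotypes. The counts of genes and the leading genes are therefore given with all 17 tumors and again without this pair, which left 7 Brca1-deficient and 8 wild type tumors. Below, 61362 is called Brca1-deficient by its label only. Tumors 57452 (Brca1-deficient) and 60514 (wild type) also stood apart from the rest and were each other's nearest array, at 0.63. Distances within a genotype, with a median of 0.66 over 64 pairs, overlapped those between genotypes, with a median of 0.73 over 72 pairs.

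**Figure D1:**
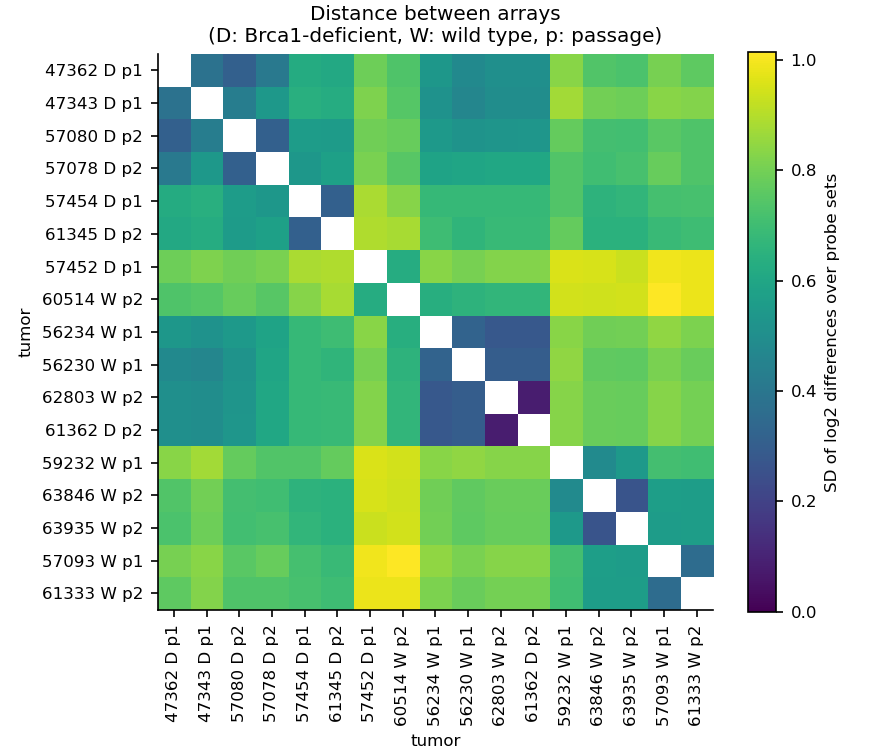
Standard deviation of the log2 differences between every 2 of the 17 arrays (both axes list tumors with genotype and passage; the colour bar gives the distance). The darkest cell, 0.08, joins wild type 62803 and Brca1-deficient 61362, and 57452 and 60514 are far from most arrays.

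Brca1 itself was measured by 4 probe sets, and its level did not separate the labels. By the brightest of them the log2 level ranged from 9.99 to 11.04 in the Brca1-deficient tumors, with a median of 10.43, and from 9.92 to 11.15 in the wild type tumors, with a median of 10.62. The groups overlapped over almost their whole range. The 4 differences lay between -0.17 and 0.02 (exact permutation test, two-sided, 24310 splits, p = 0.375 to 0.938, all adjusted to 0.938), and leaving out the pair gave -0.20 to 0.03 (p = 0.368 to 0.924). No source used here places these probe sets relative to the deleted exons, so their level does not check the genotype labels. Keratin 18, the gene whose promoter drives the transgene, was uniformly high, from 13.73 to 13.90 in Brca1-deficient and from 13.80 to 13.96 in wild type tumors.

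With passage as a covariate, 85 of 18193 genes were higher in Brca1-deficient tumors (0.467% of those tested) and 109 were lower (0.599%), at an adjusted p under 0.05 by limma. Without the pair, 280 were higher (1.54%) and 260 lower (1.43%), and all 194 genes of the larger comparison were among these 540 (2.97%) in the same direction. The 15 tumors are part of the 17, so this overlap is no separate check of the calls. If the tumors of a genotype share primary cancers, the spread behind these calls is partly within lines. The count in 17 tumors depended on single tumors: when each was left out in turn it ranged from 4 to 646, and it was 10 or fewer in 8 of the 17 refits. Leaving out 47362, 47343, 57080, 57078 or 61345 (Brca1-deficient), or 63846, 63935 or 57093 (wild type), brought it to 4 to 6. It was 44 without 61333, 65 without 59232, 70 without 57454, 269 without 57452, 389 without 60514 and 646 without 61362. The 4 genes Lsm12, Slfn8, Mat1a and Sptb were called in every refit. In the 15 tumors the count ranged from 281 without 57080 to 926 without 60514 (294 without 57078, 339 without 63846, 359 without 63935), and 248 genes, 117 higher and 131 lower, were called in all 15 refits.

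Lsm12, which encodes an RNA-binding protein of the Sm-like family, was at a log2 level of 10.35 to 11.14 in 7 of the 8 Brca1-deficient tumors and at 6.71 to 7.91 in the 9 wild type tumors. Tumor 61362 was the exception, at 7.37, next to 7.15 in its near-identical partner 62803. The difference of the whole groups was 3.01 ± 0.40 (log2, SE; adjusted p = 0.0066) and rose to 3.43 ± 0.18 without the pair (adjusted p = 5.07e-07). Its dimmer probe sets differed by 0.96 and 0.06, the last of them near the bottom of the scale.

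Slfn8, a member of the Schlafen family whose genes respond to interferon, went the other way. It ranged from 6.59 to 8.18 in Brca1-deficient tumors (median 6.88) and from 8.18 to 9.36 in wild type tumors (median 8.79). Only 61362 reached the wild type range, and the difference was -1.82 ± 0.23 (adjusted p = 0.00576), or -2.08 ± 0.17 without the pair (adjusted p = 3.84e-05).

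Mat1a, the methionine adenosyltransferase that makes S-adenosylmethionine, lay between 6.37 and 8.13 in Brca1-deficient tumors (median 6.82) and between 8.15 and 8.91 in wild type tumors (median 8.59). The groups did not overlap, although 61362 was only just below the lowest wild type tumor. The fall was -1.62 ± 0.20 (adjusted p = 0.00576), or -1.85 ± 0.14 without the pair (adjusted p = 3.33e-05). Sptb, a beta spectrin of the membrane skeleton, behaved alike: it ranged from 7.76 to 9.54 against 9.56 to 10.09, with medians of 8.20 and 9.75, and differed by -1.42 ± 0.19 (adjusted p = 0.0066), or -1.62 ± 0.13 without the pair.

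**Figure D2:**
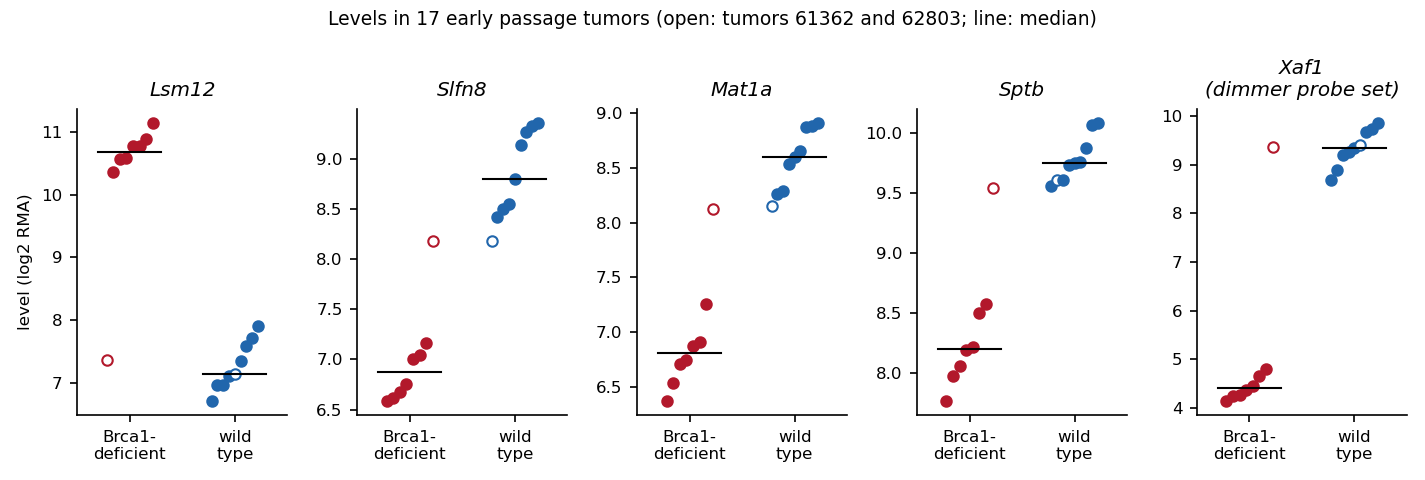
Log2 level of the 4 genes called in every refit, and of the dimmer Xaf1 probe set, in the 8 Brca1-deficient and 9 wild type tumors (points are tumors, open points are 61362 and 62803, lines are medians). In each panel the open Brca1-deficient point, 61362, sits within the range of the wild type tumors or just outside it.

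The widest separation was hidden by the choice of 1 probe set per gene. Xaf1, an interferon-stimulated gene that promotes apoptosis, rose by its brightest probe set by 0.71 ± 0.13 (adjusted p = 0.0272), but fell by its dimmer one. There the 8 Brca1-deficient tumors had a median of 4.41, a lowest value of 4.14 and a highest of 9.36, which was again 61362. The other 7 ended at 4.81, and the 9 wild type tumors started at 8.68. When all 34945 probe sets with 1 gene name were tested, 103 were higher (0.295%) and 154 lower (0.441%), and this probe set had the largest difference of those called, at -4.27 ± 0.57 (adjusted p = 0.00961), and -4.91 ± 0.18 without the pair, where 408 probe sets were higher (1.17%) and 498 lower (1.43%). It was singled out after its values were seen.

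Xaf1, Slfn8 and Lsm12 all lie on chromosome 11, as Brca1 does. In RefSeq order along the 1443 tested genes of that chromosome, Lsm12 is 18 genes from Brca1, Slfn8 322 genes and Xaf1 496 genes from it on the other side. Of the 50 tested genes nearest to Brca1, 25 on each side, Lsm12 alone was called with 17 tumors (2.0%, against 1.07% of all genes), and Coa3, an assembly factor of cytochrome oxidase, was the other one without the pair, at 0.58 ± 0.09 (adjusted p = 0.00491). That made 4.0% of these neighbours against 2.97% of all genes, and such shares are near the background.

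The other arrays of the newer set, which the comparison did not use, gave these levels. Lsm12 was at 10.36 to 11.17 in the 8 Brca1-deficient tumors of passages 3 to 5 and at 10.36 and 10.43 in the 2 Brca1-deficient primary tumors, against 6.68 to 7.82 in 3 wild type primaries. For the dimmer Xaf1 probe set these groups were at 4.18 to 4.85, 4.35 and 4.80, and 8.45 to 9.49, so that the genotypes did not overlap for either gene. As these primaries and later transplants may be parents or descendants of the early tumors, their levels are not independent of them. In the earlier published arrays the genotypes overlapped: among p53-deleted primaries, Lsm12 ranged from 9.73 to 10.97 in 14 Brca1-deficient tumors but from 7.43 to 10.55 in 4 wild type tumors. The Xaf1 probe set was at 4.404 to 5.28 against 4.72 to 8.17 there, with medians of 4.745 and 5.10. Of these wild type tumors only R5810, at 8.17, was above 5.40. In tumors with missense p53 the Xaf1 probe set was high in both genotypes, at 9.09 to 9.42 in 3 Brca1-deficient and 9.28 to 10.08 in 5 Brca2-deficient tumors. Lsm12 was also high in them, at 10.58 to 11.06 and 9.44 to 10.85. In 3 samples of normal epithelium the Xaf1 probe set ran from 4.54 to 8.79.

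**Figure D3:**
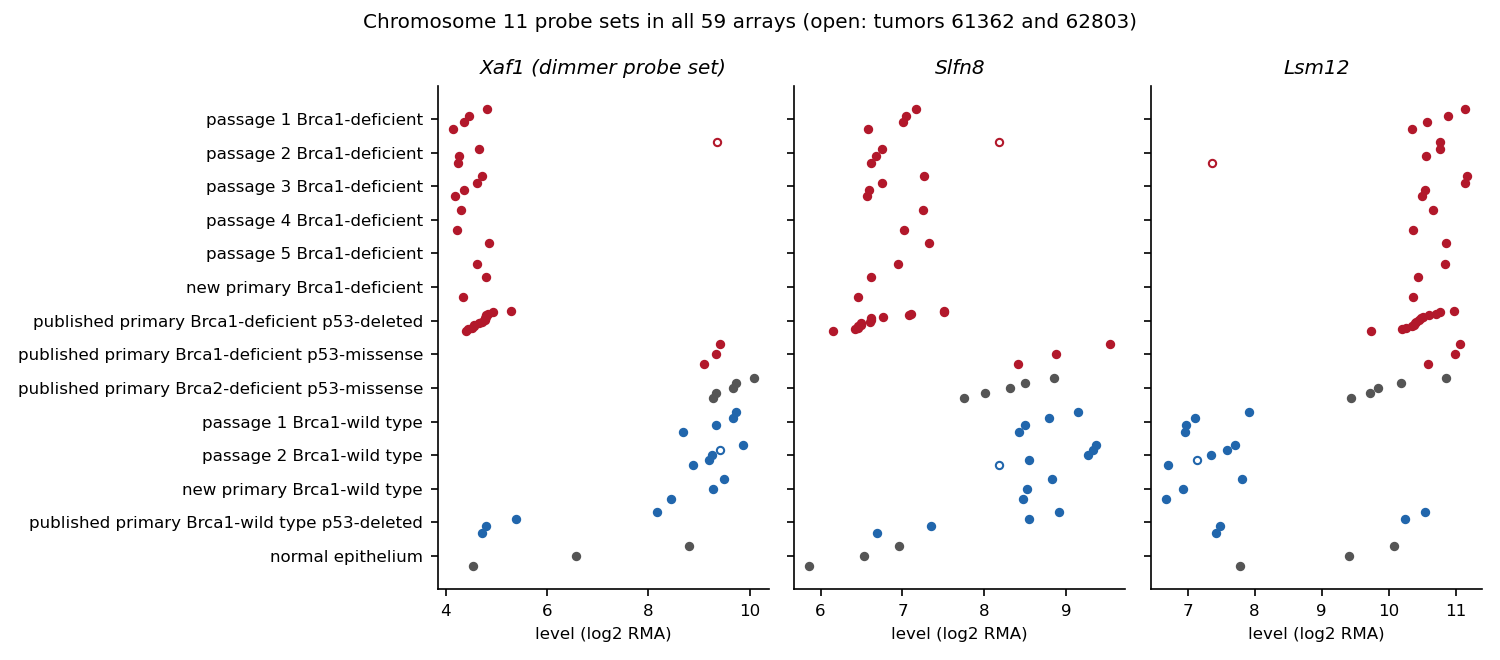
Log2 level of 3 chromosome 11 probe sets in all 59 arrays, by group (points are arrays, red is Brca1-deficient, blue is Brca1-wild type, grey is other, open points are 61362 and 62803). In the newer set the genotypes fall apart except for 61362, while the published wild type arrays spread over both levels.

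The 12 genes with the largest rises, Lsm12 among them, included genes known from epithelial junctions, muscle and mesenchyme. Cldn6, a tight junction protein of embryonic epithelium, ranged from 6.29 to 11.45 in Brca1-deficient tumors (median 10.36) and from 5.60 to 6.88 in wild type tumors (median 6.12). All Brca1-deficient tumors but 61362 were above every wild type tumor. The rise was 3.74 ± 0.59 (adjusted p = 0.0247), and 4.28 ± 0.40 without the pair.

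Tnni3, the inhibitory troponin of heart muscle, was at 8.12 to 12.23 against 6.34 to 10.51 and rose by 3.33 ± 0.67 (adjusted p = 0.0279), or 3.84 ± 0.61 without the pair. Tox2, a DNA-binding HMG box protein, was at 11.25 to 12.09 in all 8 Brca1-deficient tumors, whereas the wild type tumors spread from 7.09 to 11.48. Here the overlap came from 62803, the wild type member of the pair, and Tox2 rose by 3.06 ± 0.50 (adjusted p = 0.0247). Its dimmer probe set, at the bottom of the scale, differed by 0.02.

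Gm10451, a predicted gene with no role given here, rose by 3.21 ± 0.57 (adjusted p = 0.0272) with 47343 at 5.89 among the wild type values. Gfra2, the neurturin receptor, rose by 2.74 ± 0.54 by its brightest probe set, while its 4 others differed by 0.08 to 0.49. Further rises were Scube3, a secreted EGF-domain protein, at 2.60 ± 0.43, Sult6b1, a sulfotransferase, at 2.58 ± 0.54, and Tcf21, a transcription factor of mesenchyme, at 2.39 ± 0.50. Bdh1, a mitochondrial enzyme of ketone bodies, rose by 2.12 ± 0.33, Alpk3, a kinase of heart muscle, by 2.04 ± 0.37, and Rerg, an estrogen-regulated growth inhibitor, by 1.83 ± 0.34.

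The 12 largest falls included Slfn8, Mat1a and Sptb. Ifit1bl1, an interferon-induced gene, ranged from 5.46 to 8.27 in Brca1-deficient tumors (median 5.93) and from 6.74 to 9.33 in wild type tumors (median 8.38). The 7 Brca1-deficient tumors other than 61362 ended at 6.10, below all wild type tumors, and the difference was -2.001 ± 0.44 (adjusted p = 0.0431). Pla2g4a, which releases arachidonic acid from membranes, fell by 1.55 ± 0.34 on the log2 scale, with ranges of 8.09 to 10.10 and 9.72 to 11.39 that overlapped. Cd36, a receptor for fatty acids, fell by 1.33 ± 0.30 by its brightest probe set, and its 2 others differed by -1.43 and -1.24. The chloride channel gene Cftr fell by 1.22 ± 0.27, with a dimmer probe set at -1.46. Tcaf2 (-1.23 ± 0.26), Rnf152, a ubiquitin ligase of lysosomes (-1.23 ± 0.25), Actn3, the alpha-actinin of fast muscle (-1.19 ± 0.23), Smyd1, a methyltransferase of muscle (-1.18 ± 0.27), and Gramd3 (-1.09 ± 0.25) completed the 12, and of the 6 probe sets of Smyd1 the 5 dimmer ones differed by -0.57 to 0.07. All of the 12 rises and 12 falls, being among the 194 called genes, were also called without the pair, in the same direction.

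**Figure D4:**
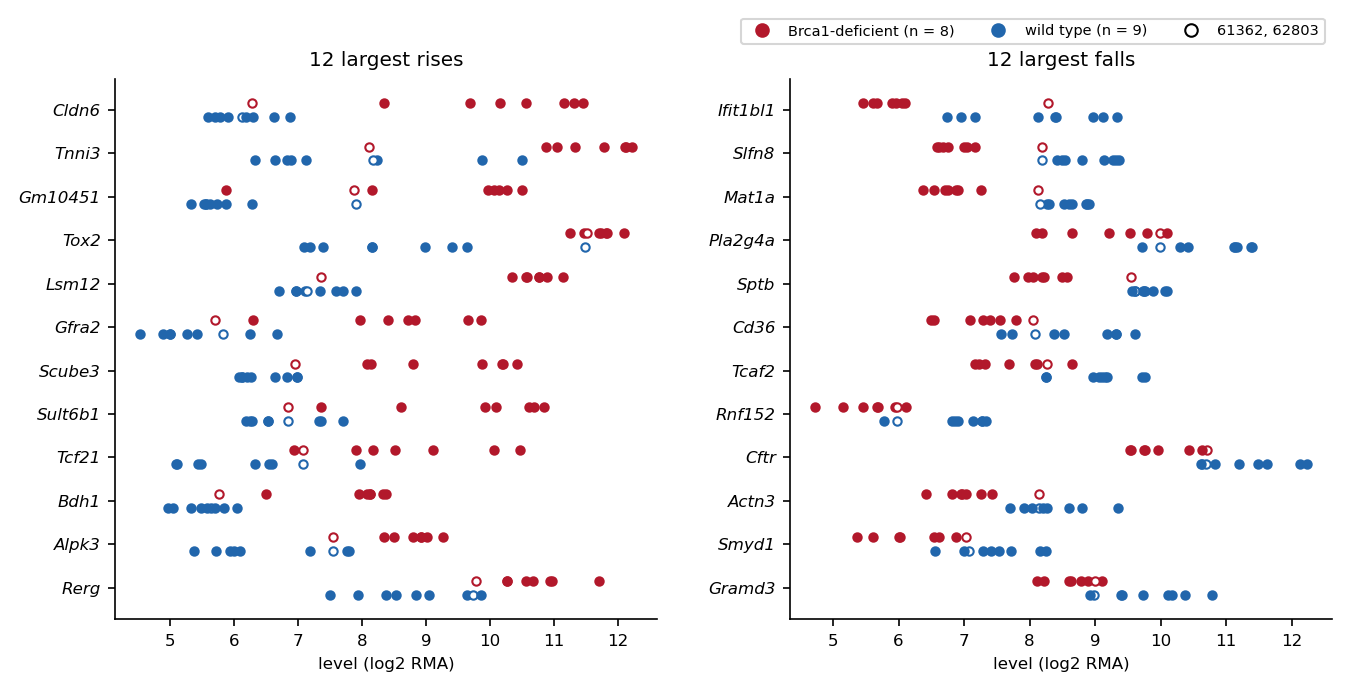
Log2 level of the 12 genes with the largest rises (left) and falls (right) in Brca1-deficient (red) and wild type (blue) tumors (points are tumors, open points are 61362 and 62803). The open red point, 61362, lies close to the open blue point, 62803, in every row, and for most genes it is among or next to the blue points.

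Complete separation of the 17 tumors was found for 4 genes with Brca1-deficient tumors above (0.022% of those tested) and 16 below (0.0879%), and 3 and 13 of these passed the test as well. Such separation needs the near-identical 61362 and 62803 to fall on opposite sides, so it can rest on a very small difference between them. They were at 10.897 and 10.892 for Fmod and at 10.096 and 10.11 for Gphn. Without the pair 86 genes were above (0.473%) and 113 below (0.621%). The 3 higher genes were Fmod, a collagen-binding proteoglycan, at 1.37 ± 0.25 and with all 6 probe sets at 1.25 to 1.36, Eef1e1, a component of the aminoacyl-tRNA synthetase complex, at 0.83 ± 0.18, and Zmynd11, a reader of histone methylation, at 0.37 ± 0.08. Not every probe set of Fmod separated the 17 tumors. Among the lower genes, besides Mat1a and Sptb, was Gphn, the scaffold of inhibitory synapses that also serves in molybdenum cofactor synthesis. Gphn was at 9.31 to 10.10 against 10.11 to 10.82 (medians 9.54 and 10.54), and its 3 probe sets differed by -0.91 to -0.96.

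Of the 13 genes that separated downwards and passed the test, 8 lie on chromosome 12, namely Sptb, Gphn, Frmd6 (a FERM protein), Acot6 (an acyl-CoA thioesterase), Gstz1 (an enzyme of tyrosine breakdown), Ptgr2 (a prostaglandin reductase), Snw1 (a splicing and transcription cofactor) and Gpatch2l. Their differences ranged from -1.42 to -0.47. The other 5 were Mat1a, Cnst, Klhl36, Mtcl1 and Nr2c1, on chromosomes 14, 1, 8, 17 and 10. Ptgr2, as an example of a small difference, was at 10.38 to 10.93 in Brca1-deficient and 10.97 to 11.25 in wild type tumors. The facing ends, 10.93 and 10.97, were the near-identical 61362 and 62803. Ptgr2 fell by 0.52 ± 0.08 on the log2 scale (adjusted p = 0.0247), with 5 of its 6 probe sets at -0.31 to -0.63 and the dimmest at -0.06. Only the brightest probe set separated all 17 tumors.

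Genes of chromosome 12 made up about as many of the lower calls as all other chromosomes together. The chromosome held 622 tested genes, 3.42% of all, and 56 of the 109 lower calls. That count ranged from 1 to 118 when each tumor was left out and was 0 in each passage fitted alone, and it fell to 1 or 2 without 47362, 47343, 57080, 57078, 61345, 63846, 63935 or 57093. It was 7 without 61333, 16 without 59232, 18 without 57454, 36 without 56234, 96 without 60514 and 118 without 61362. Since the parents of these tumors were not named, it may rest on few lines. Of its genes 9.0% were called lower, against 0.599% of all genes, and 517 of the 622 differences were negative, with a median of -0.22. Without the pair 114 of its genes were called lower (18.3%) and the median was -0.25. The 56 genes were not in 1 place: they ran from the 14th to the 611th of the 622 genes in RefSeq order. Medians were taken over every 25 neighbouring genes on all chromosomes, 17541 windows in all, and the 30 windows below -0.4 were all on chromosome 12. The lowest, -0.49, reached from Ttc9 to Ptgr2.

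In single tumors, the median shift of chromosome 12 genes from the mean of the 17 ran from -0.23 to 0.04 in Brca1-deficient and from 0.03 to 0.14 in wild type tumors. Only 61362 was above 0 among the former, and without the pair the highest Brca1-deficient tumor was at -0.08. All 8 tumors of passages 3 to 5 were below 0, from -0.13 to -0.03. The 2 Brca1-deficient primary tumors of the newer set disagreed, with 30200 at -0.26 and 39877 at 0.16, and the 3 wild type primaries were at 0.05 to 0.16. In the published p53-deleted tumors the shift did not follow the genotype: 7 of 14 Brca1-deficient and 3 of 4 wild type tumors were below their mean, and 248 of the 622 genes had a negative difference. DNA copy number was not measured on these arrays, and its part in the shift was not tested.

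Other chromosomes showed calls in the opposite direction. Chromosomes 14 and 13 held 16 and 14 of the 85 higher calls, 2.5% and 1.99% of their tested genes, against 0.467% of all genes, and 35 each without the pair. On chromosome 14 the shift of 57454 was -0.09 and that of 61345 was -0.12, within the wild type range of -0.20 to 0.11, and the other 6 Brca1-deficient tumors were at 0.08 to 0.18. The highest window of 25 genes, from Mss51 to Kcnma1 on chromosome 14, had a median of 0.66, with 5 of its genes called. Chromosome shifts also divided the wild type tumors among themselves. On chromosome 16, 5 of the 9 (59232, 63846, 63935, 57093 and 61333) were at -0.32 to -0.25, and the other 4 were at 0.14 to 0.17. The Brca1-deficient tumors were at -0.03 to 0.17 there. Over all probe sets, the nearest array of each of these 5 tumors was another of the 5. Among wild type primaries of the newer set, the chromosome 16 shift was -0.39 in 34429, -0.21 in 32233 and 0.23 in 29255. In the Brca1-deficient primaries it was 0.05 in 30200 and -0.21 in 39877.

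**Figure D5:**
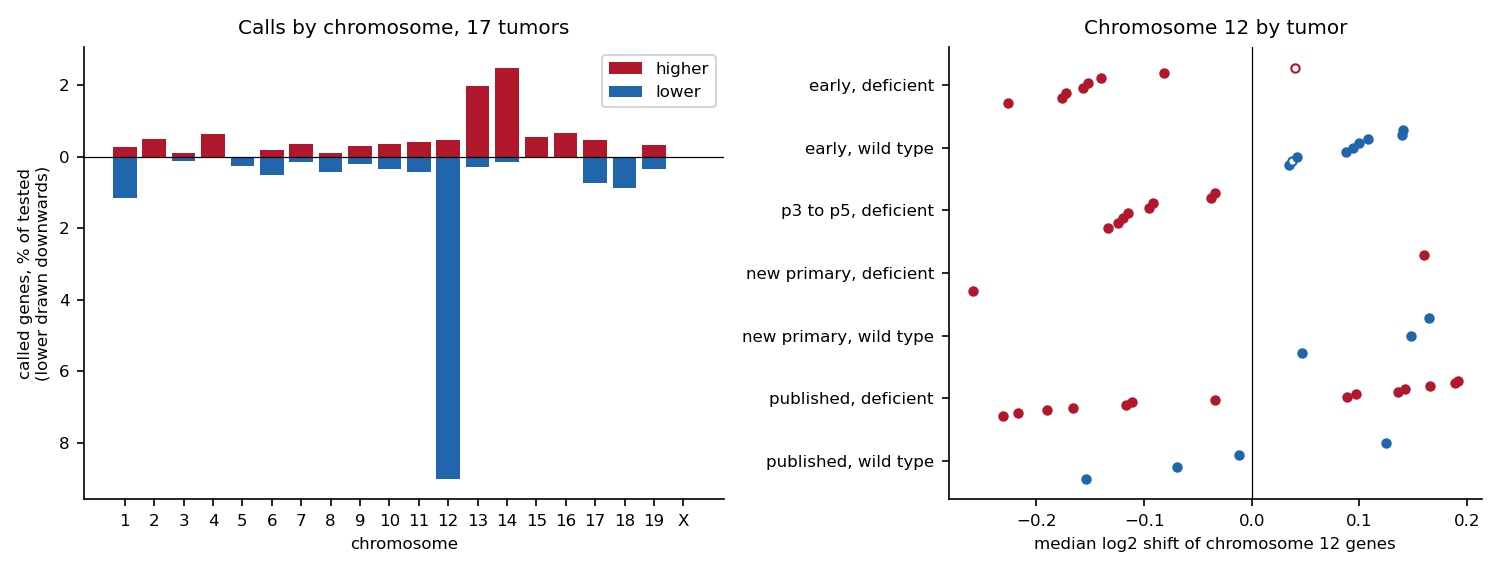
Left, the percentage of tested genes on each chromosome called higher (red, upwards) or lower (blue, downwards) in Brca1-deficient tumors. Right, the median log2 shift of chromosome 12 genes in each tumor, by group (open points are 61362 and 62803): early tumors divide at 0 except for 61362, at 0.04, and published tumors of each genotype lie on both sides.

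The repair genes that Brca1 works with were called at about the rate of all genes. None of the 31 measured genes of BRCA1 complexes and homologous recombination was called with 17 tumors, against 1.07% of all genes in either direction, and their median difference was 0.03. Without the pair H2ax, the histone that is phosphorylated at DNA breaks, was the 1 called (3.23%, against 2.97% of all genes), at 0.76 ± 0.16 (adjusted p = 0.0217). Its level ran from 9.56 to 11.002 in Brca1-deficient and 9.25 to 10.50 in wild type tumors, so that the groups overlapped.

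End joining had no call in 18 genes in either setting. In PARP and single strand break repair, with 18 genes, and in the Fanconi anemia pathway, which unhooks crosslinks, also with 18, there was none with 17 tumors and 1 each without the pair (5.56%, against 2.97% of all genes). A single call of 18 is near that background. They were Parg, which removes poly(ADP-ribose), at 0.55 ± 0.14 (adjusted p = 0.0443), which kept its call in only 4 of 15 refits that left out a tumor, and Fancc, of the Fanconi core complex, at 0.54 ± 0.10 (adjusted p = 0.00965), which kept it in all 15.

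Proliferation genes were likewise called at about the background rate. The median of 29 mitosis genes was 0.21, against 0.00 for all genes, with no call in 17 tumors and only Ccnb2, a mitotic cyclin, without the pair (0.59 ± 0.14, adjusted p = 0.0419; 3.45% of the list, against 2.97% of all genes). Ccnb2 kept its call in 4 of 15 refits. With 17 tumors 26 of the 29 mitosis differences were positive. In the published primary tumors 28 were, with a median of 0.18, against 0.03 for all genes. The 34 replication genes had a median of 0.05 and no call in either setting. Mki67, the common proliferation marker, was at 11.52 to 12.67 and 11.15 to 12.58 and differed by 0.12 ± 0.22. Among 24 p53 targets only Fas, a death receptor, was called, and only without the pair, at 1.39 ± 0.22 (adjusted p = 0.00472). That was 4.17% of the list, against 2.97% of all genes.

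A list of 30 interferon-stimulated genes had a median difference of -0.40 (0.00 over all genes). Of these only Xaf1 passed with 17 tumors, upwards by its brightest probe set, while its dimmer one fell. Slfn8 and Ifit1bl1, described above as responding to interferon, are outside this list and passed downwards with 17 tumors. Without the pair 5 of the 30 were lower and Xaf1 was still the 1 higher, 6 of the 30 in all, where 2.97% of all genes were called. The 5 were Irf7, the regulator of interferon production (-0.81 ± 0.11, adjusted p = 0.00345), Usp18, which restrains interferon signalling (-1.06 ± 0.20), and the antiviral effectors Ifit1 (-1.67 ± 0.31), Ifit3 (-1.30 ± 0.23) and Rsad2 (-1.07 ± 0.21), the last 2 named after their values were seen. With all tumors their adjusted p lay between 0.0504 and 0.0959. In the published primary tumors the median of the 30 genes was -0.29, against 0.03 for all genes. Irf7 ran from 6.46 to 7.67 in Brca1-deficient and from 7.13 to 8.12 in wild type tumors, and 61362 was its highest Brca1-deficient value. In bulk tumors, fewer cells of a type cannot be told apart from less RNA per cell. The mean log2 level of 13 T and NK cell markers was 5.62 to 6.14 against 5.88 to 6.44, and no marker of that list was called. Its part in the interferon result was not tested.

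Among 35 genes of simple epithelium and junctions the share called was 5.71%, against 1.07% of all genes, and 11.4%, against 2.97%, without the pair. Of these genes, Cldn6 and Ehf, an epithelial ETS factor (1.63 ± 0.34, adjusted p = 0.0319), rose with 17 tumors, and the claudin Cldn7 (1.96 ± 0.36) and the basal keratin Krt14 (2.49 ± 0.45) joined them without the pair. The median of that list was 0.00. None of 24 Mullerian and serous lineage genes was called in either setting. Pax8, a marker of serous ovarian cancer, was near the bottom of the scale, at 4.86 to 6.86 against 4.98 to 5.53. Wnt and Notch signalling, with 33 genes, had 1 higher call, the Notch target Heyl (1.12 ± 0.26, adjusted p = 0.0492). Without the pair the secreted Dkk3, higher, and the Notch ligand Dll4, lower, were also called. The share called was 3.03%, against 1.07% of all genes, and 9.09%, against 2.97%, without the pair.

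Stromal lists had medians above 0 and no gene past the test with 17 tumors. Fmod, the collagen-binding proteoglycan that did pass with 17 tumors, is in none of these lists. The medians were 0.31 for 29 extracellular matrix genes, 0.38 for 13 fibroblast markers and 0.39 for 12 markers of smooth muscle and pericytes, against 0.00 over all genes. Without the pair the matrix genes Eln (elastin, 1.78 ± 0.40, adjusted p = 0.0284) and Tnc (tenascin C, 1.81 ± 0.43, adjusted p = 0.0362) were higher, 6.9% of the list against 2.97% of all genes. They kept their calls in 6 and 5 of 15 refits. The mean log2 level of the fibroblast markers was 7.61 to 9.69 in Brca1-deficient and 7.19 to 9.20 in wild type tumors. In the published tumors the same lists had medians of -0.41, -0.64 and -0.60. The 15 endothelial markers had a median of -0.43 and no call, with a mean level of 7.66 to 8.54 against 7.98 to 8.87.

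Of the markers of other cell types, Jchain, the joining chain of secreted antibodies, showed the widest spread. It was at 5.06 to 6.69 in Brca1-deficient and 5.55 to 11.38 in wild type tumors and differed by -2.99 ± 0.69, with an adjusted p of 0.0504, or -3.30 ± 0.67 without the pair (adjusted p = 0.0171). Without the pair it was the 1 call of 13 B and plasma cell markers (7.69%, against 2.97% of all genes). Foxl2, the transcription factor of ovarian granulosa cells, was at 7.16 to 10.38 against 5.18 to 9.44. At 2.80 ± 0.59 it was the 1 call of 13 ovarian markers without the pair (7.69%, against 2.97% of all genes). Actn3, which fell, was the 1 call of 14 skeletal muscle markers in both settings (7.14%, against 1.07% and 2.97% of all genes). With 17 tumors 9 of these 14 differences were positive, and their median was 0.06. A single call in lists this short is near the background. No marker of macrophages, neutrophils, dendritic cells, fat, mesothelium or oocytes was called in either setting.

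Genotype, passage and stage were also compared by their shares of the variation. Of the variance over all probe sets, genotype accounted for 12.6%, passage for 2.35% and stage class (I-II or III-IV) for 13.5%. Any division of so few tumors takes some share, which is larger with fewer tumors, and the shares were not corrected for this. The stage share was taken without the unstaged tumor 57080, so it does not rest on the same tumors as the others. Without the pair the order of genotype and stage turned, with 15.7% for genotype, 4.57% for passage and 10.2% for stage. No gene passed the test between passages 1 and 2 (limma, 83 at an unadjusted p under 0.05), and none passed for a genotype difference that depended on passage (252 unadjusted). Within passage 1 and within passage 2, with the spread pooled over both, no gene was called for genotype (1471 and 1404 unadjusted). Without the pair, whose tumors are both of passage 2, 10 genes were higher and 7 lower in passage 1, whose tumors were unchanged, and 55 were higher and 27 lower in passage 2. Stage III or IV was given for 4 Brca1-deficient and 6 wild type tumors, and stage I or II for 3 of each, with 1 Brca1-deficient tumor unstaged. With stage added to the fit and that tumor, 57080, left out, 1 gene was higher and 3 were lower. Leaving out 57080 without adding stage also gave 4 calls.

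The published p53-deleted primary tumors, 14 Brca1-deficient and 4 wild type, gave the same contrast in the earlier arrays. Primary tumor 30200 is listed in both sets, so the newer primaries are not wholly separate from these. Only Hhip (0.0055% of genes), which binds and inhibits hedgehog ligands, was called there, at -2.53 ± 0.24 (706 genes at an unadjusted p under 0.05). Groups did not overlap there for 16 genes above (0.0879%) and 2 below (0.011%). Hhip was at 5.59 to 6.38 in Brca1-deficient and 7.55 to 9.35 in wild type primaries, but at 5.46 to 5.65 and 5.55 to 7.21 in the early passages, where it differed by -0.50 ± 0.22. The 2 sets were compared in 1 model, and the genotype difference of Hhip was 2.03 ± 0.33 less negative in the early passages (adjusted p = 0.00683). Slc19a2, a thiamine transporter, was the other gene past that test, so that 1 gene passed in each direction (0.0055% each, 0.011% in all), and 3 did without the pair (0.0165% each, 0.033% in all). It differed by -0.80 ± 0.14 in the early passages and by 0.53 ± 0.16 in the published tumors. Both were singled out after their values were seen. All early tumors were transplants of the newer set, and all published ones were primaries of the earlier set. Array set and transplantation therefore cannot be told apart in the comparison of the 2 sets.

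Of the 194 genes called in the early passages, none was called in the published tumors and 110 had the same sign there (56.7%, against 48.8% of all genes). Lsm12 was at 1.52 and Slfn8 at -1.14 in the published tumors, with unadjusted p of 0.00205 and 0.00197, and Cldn6 was at 1.204 ± 0.93. Mat1a differed by 0.03 and Sptb by -0.15 there, and the difference of Sptb between the sets passed without the pair, at -1.47 ± 0.22 (adjusted p = 0.00235).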

How the data were processed

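The authors normalized the arrays with RMA and deposited log2 levels for 45037 probe sets in 59 arrays, and they deposited a second table of log2 values, merged with human tumors and batch-corrected, whose 278 columns of other samples were not used. Array number limits the precision, and no depth applies. Probe sets with 1 gene name (34945) were taken from the platform annotation, and the brightest of each gene was kept (18193 genes); 932 named several genes and 9160 none. The genotype difference was fitted with limma 3.58.1 (R 4.3.3; lmFit and eBayes) with passage as covariate, Benjamini-Hochberg adjustment over all genes and a threshold of 0.05. The labels do not say which tumors came from separate lines. RefSeq (GRCm38.p6) gave chromosome and gene order only, for 18032 genes. Named genes were the 12 largest rises and falls, up to 4 members of each list with the smallest p, genes called with and without the pair whose groups do not overlap, and genes the study treats; a selection is printed. The members and lists were chosen with earlier results of these data known. Alternatives were other covariates, filters, tables, weights and left-out tumors. The fit was checked on simulated data. These drew every tumor independently, without shared lines or a near-identical pair, so the check does not cover such dependence.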

Additional observations from a re-analysis of the deposited data

Results flagged for a closer look

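A lone tumor far from its group was looked for in 140 groups of values, and 15 had one; chance gives about 1 in 20 for values not chosen beforehand, but these genes were chosen for their genotype difference, so that rate does not apply to them. In 11 of the 15 it was the Brca1-deficient tumor 61362. It was the lowest of its genotype for Tnni3 (8.12, next lowest 10.87), Lsm12 (7.37), Fancc (7.60), Foxl2 (7.16) and Coa3 (11.25), and the highest for Ifit1bl1 (8.27), Slfn8 (8.18), Sptb (9.54), Gphn (10.10), Irf7 (7.67) and Dll4 (6.91). The other 4 were the wild type tumor 62803 for Gm10451 (7.91), the Brca1-deficient tumors 57080 for Cnst (10.93) and 57454 for Eef1e1 (10.68), and the wild type tumor 59232 for Snw1 (12.68).

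The genotype difference was not the same in the early passages and the published primaries, by the test of that difference in limma, for 2 genes: Hhip (2.03, adjusted p = 0.00683) and Slc19a2 (-1.33, adjusted p = 0.00683). Without the pair there were 6: Hhip (1.98), Slc19a2 (-1.43), Sptb (-1.47), Bhlhe41 (1.60), Lax1 (1.41) and Otx1 (-1.09), with adjusted p from 0.00235 to 0.0181. Array set and transplantation cannot be told apart in this test.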

How the results depend on the processing

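With 17 tumors the counts of higher and lower genes, 85 and 109, became 280 and 260 without the pair, 277 and 191 without 57452 and 60514, 1 and 3 with stage added and the unstaged 57080 left out (1 and 3 also without 57080 alone), 1313 and 921 with array weights, 1 and 0 in passage 1 alone and 0 and 0 in passage 2 alone. The higher count was 133 without the passage covariate, and the lower was 71 in the merged table and 70 with a trended, robust prior. Leaving out each tumor gave 1 to 340 higher and 3 to 306 lower. The chromosome 12 count of 56 was 114, 89, 1, 28, 237, 31, 0 and 0 under the pair, the 2 distant tumors, stage without 57080 (1 also without 57080 alone), merged table, weights, trended prior and passages 1 and 2, and 1 to 118 with each tumor left out. With 15 tumors, 280 and 260 became 147 and 154 in the merged table and 746 and 491 without 57452 and 60514, the lower count was 160 with stage and without 57080 (140 without 57080 alone) and 498 over every probe set, and left-out tumors gave 131 to 465 and 140 to 461. Without the pair, passage 1 gave 10 and 7 and passage 2 gave 55 and 27, and early against published 3 and 3 in place of 1 and 1. The published count of 1 lower was 0 among brighter genes and 1 to 3 with wild type tumors left out; leaving out tumors gave 0 to 1 lower genes in the test between passages. Variance shares without the pair and scaled were 15.7% and 10.2% for genotype, 4.57% and 3.32% for passage and 10.2% and 10.6% for stage. Xaf1 reversed to -1.78 with the mean of probe sets, which disagree. Lsm12, Slfn8, Mat1a and Sptb kept their call except in single passages (adjusted p from 0.134 to 0.542; Lsm12 lost it in passage 2 alone). Over 66 named genes, not all of them called in the main fit, 456 alternative fits left the gene called or uncalled as before. The call was lost in 151 fits and gained in 63, and 1 reversed direction. A change of sign between uncalled fits was counted as no change. The cause of the other changes was not tested. No paired analysis was possible because the labels carry no replicate numbers shared by the genotypes.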
